A study of Mus musculus with 6 samples.

Results

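Messenger RNA was compared between 6 h and 3 h of cycloheximide treatment in E14 cells, a mouse embryonic stem cell line of 129/Ola background. The comparison sets 2 libraries against 2, out of 6 libraries in the study, and covers the 12755 of 17484 genes that passed a filter on low counts. All cells were kept in medium with serum and leukaemia inhibitory factor (LIF) and were treated 24 h after they were seeded. The treated groups received cycloheximide at 250 µg/mL, dissolved to a final 0.007% ethanol, for 3 h or for 6 h. The controls received ethanol alone for 9 h. They are not compared by a test here, and their levels are given beside the others as a description only. Because all treatments began 24 h after seeding, time in culture rose with treatment time and was longest in the controls. Treatment time and time in culture therefore cannot be told apart between 3 h and 6 h. The controls match neither treated group in time and are not a starting level. The labels name no genetic change, and they do not say whether the 2 libraries of a group came from separate cultures, so p-values measure the spread between these libraries, which may be technical. The series is titled as bulk sequencing although its design text speaks of single cells, and each file holds 1 value per gene.

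Cycloheximide stops the ribosome during elongation, so proteins with short half-lives are lost while their messages can go on being made. Many immediate-early messages become more abundant under such a block, since the repressors and decay factors that normally end their expression are not replaced. In embryonic stem cells, LIF acts through STAT3 and fibroblast growth factor 4 acts through ERK, and both pathways switch on short-lived inhibitors of themselves, such as Socs3 and the Sprouty proteins.

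Of the 12755 genes, 209 were called different between the times (1.64%), at an adjusted p under 0.05 in edgeR's quasi-likelihood test with Benjamini-Hochberg adjustment. Of these, 58 were higher at 6 h (0.455%) and 151 were lower (1.18%). Both shares are the background for the counts of called members in every list below. At least a 2-fold change was seen in 33 genes that rose and 78 that fell. Called genes changed by a median of 1.01 on the log2 scale, whatever the direction. The median change over all genes was 0.006, with quartiles of -0.25 and 0.29. The 2 libraries of one time lay wholly above those of the other for 3472 genes (27.2%) that were higher and 3431 genes (26.9%) that were lower at 6 h. An unadjusted p under 0.05 was reached by 2315 genes.

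Levels are given as CPM, a gene's share of its library's counts, scaled by the trimmed mean of M values (TMM). In bulk samples, fewer cells of a type and less RNA per cell cannot be told apart. Library totals were 15297359 and 16760303 counts at 3 h, and 27351077 and 23121225 at 6 h, so the 6 h libraries were the deeper ones. The mitochondrial chromosome gave 19.6% and 18.9% of counts at 3 h, and 17.45% and 16.6% at 6 h. When libraries were scaled by their totals alone, the median log2 change of all genes moved from 0.006 to 0.135, and 121 genes were called higher and 93 lower, which is 56.5% higher against 27.8% with TMM. The number of calls depended on each library. It was 18 without the first 3 h library and 20 without the second, 28 without the first 6 h library and 14 without the second. It was 595 and 578 without the first and the second control library. Each of the 209 genes kept its sign in every alternative that tested it. Under all 17 alternatives 13 genes, all lower at 6 h, were called: Egr1, Foxd3, Gbx2, Hspa8, Inhbb, Junb, Setd1b, Socs3, Sox7, Spry2, Spry4, Tcf15 and Tubb3. By contrast, 180 genes lost the call whichever single cycloheximide library was left out, 55 of the 58 higher genes among them.

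**Figure D1:**
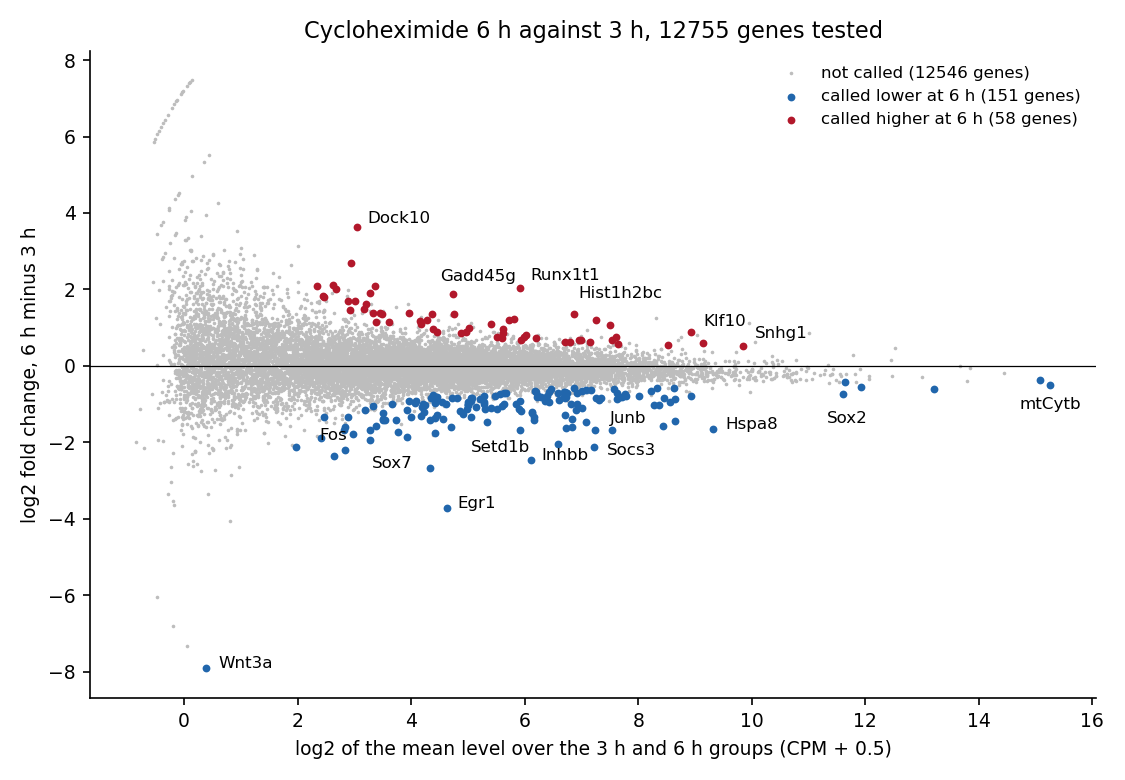
Log2 fold change between 6 h and 3 h (vertical axis) against the log2 of the mean level over both groups in CPM plus 0.5 (horizontal axis) for the 12755 genes tested. Blue points are the 151 genes called lower at 6 h, red points the 58 called higher and grey points the rest, and selected genes are named. Wnt3a lies lowest because it had no count at 6 h.

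The labelled cell type was checked first. All 10 markers of pluripotent stem cells were detected in every group, and their summed level was 5790 to 6190 CPM in control, 7000 to 7160 CPM at 3 h and 4970 to 5000 CPM at 6 h. Sox2 alone gave 3845 and 3957 CPM of the sum at 3 h and 2336 and 2375 CPM at 6 h. Markers of other cell types were summed over each list. Primitive endoderm markers came to 729 to 771 CPM at 3 h and 530 to 603 CPM at 6 h, neuroectoderm markers to 293 to 335 and 146 to 152 CPM, and trophoblast markers to 75.6 to 88.4 and 77.1 to 87.5 CPM. Mesoderm markers summed to 10.6 to 10.7 CPM at 3 h and 7.74 to 9.03 CPM at 6 h, and fibroblast markers to 15.9 to 28.0 and 15.3 to 18.5 CPM. Prl3d1, Col6a3 and Lum had no count in any of the 4 treated libraries.

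Immediate-early genes formed the group with the most calls among the signalling lists. Of 28 tested, 9 fell between 3 h and 6 h and 1 rose, against 1.18% and 0.455% of all genes, and their median log2 change was -0.69. Egr1, a zinc finger factor switched on within minutes by ERK, stood at 45.3 and 44.5 CPM in the 3 h libraries and at 3.89 and 2.95 CPM in the 6 h libraries. The control values were 2.0 and 3.42 CPM, close to those at 6 h, and the 3 h and 6 h libraries did not overlap. Its log2 change was -3.71 (SE 0.24), the largest fall among genes reaching 20 CPM (edgeR adjusted p = 0.00053).

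The AP-1 subunits Fos, Junb and Jun also fell. Fos stood at 14.7 and 14.3 CPM at 3 h and at 4.42 and 3.18 CPM at 6 h, with control at 1.19 and 2.08 CPM, a log2 change of -1.93 (SE 0.29). Junb went from 235 and 224.5 CPM to 75.1 and 69.8 CPM, within the control range of 69.2 to 80.6 CPM, a log2 change of -1.67 (SE 0.12). Jun went from 214 and 293 CPM to 138.5 and 140.5 CPM, still above the control values of 25.8 and 25.9 CPM. The log2 change of Jun was -0.86 (SE 0.15). At 6 h Junb thus lay within its control range and Jun did not. The edgeR adjusted p-values were 0.020 for Fos, 0.00099 for Junb and 0.033 for Jun, and Jun was not called when libraries were scaled by their totals alone.

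The remaining called members were the orphan receptor Nr4a1, Myc, the phosphatase Dusp1, Ier2 and Klf4, all lower, and Klf10, higher. With scaling by library totals only 5 of the list were called lower, and Dusp1, Ier2 and Klf4 lost the call as Jun did. Nr4a1, at 62.5 and 55.5 CPM at 3 h, was at 21.5 and 21.03 CPM at 6 h, below the control values of 70.6 and 53.2 CPM. Klf10, a zinc finger repressor induced by TGF-beta, moved the other way. It read 347 and 336 CPM at 3 h and 626 and 631 CPM at 6 h, with 105 and 97.3 CPM in control, and the log2 change was 0.88 (SE 0.10; edgeR adjusted p = 0.0061). Klf10 was the only gene of the list called higher, and its 4 treated libraries did not overlap between times.

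The 250 bases upstream of the RefSeq start of Fos are shown because Fos is the namesake of the list and carries a TATA box there. The sequence of Socs3, the LIF feedback gene described next, is shown because it holds a STAT motif. It is the part of the 250 bases before the RefSeq start that overlaps no exon of the gene in GENCODE M21. One annotated transcript of Socs3 starts further upstream, so the stretch lies in an intron of that transcript. Capitals mark a TATA box (TATAAA) in Fos, from 33 bases before the start, and a STAT motif (TTCNNNGAA) in Socs3, from 154 bases before the start. Both sequences are from RefSeq, build GRCm38.p6, read 5′ to 3′ on the gene's strand. That of Fos spans chr12:85473640-85473889 on the plus strand, and that of Socs3 spans chr11:117969452-117969616 on the minus strand.
Fos: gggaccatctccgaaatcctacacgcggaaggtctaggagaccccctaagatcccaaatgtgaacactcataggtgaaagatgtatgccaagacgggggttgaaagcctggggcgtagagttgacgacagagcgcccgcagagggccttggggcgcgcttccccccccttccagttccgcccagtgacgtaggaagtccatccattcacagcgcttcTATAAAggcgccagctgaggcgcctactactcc
Socs3: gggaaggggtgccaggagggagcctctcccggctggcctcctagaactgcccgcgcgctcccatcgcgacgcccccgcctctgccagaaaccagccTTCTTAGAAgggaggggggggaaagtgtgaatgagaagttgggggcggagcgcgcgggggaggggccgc

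Genes of the LIF-STAT3 pathway included 5 that fell and none that rose among 18 tested, against 1.18% and 0.455% of all genes. Their median log2 change was -0.38. The fallers were Socs3, Junb, Gbx2, the kinase gene Pim3 and Klf4. With scaling by library totals 4 of them were called, all but Klf4. Receptor and transducer genes were not called: Lifr had a log2 change of 0.29, Il6st of -0.13 and Stat3 of 0.13. Socs3 encodes the inhibitor that STAT3 induces to shut off the receptor-bound kinases. It was at 245 and 239.5 CPM at 3 h and at 54.2 and 57.4 CPM at 6 h, and both 6 h libraries lay under the control values of 92.9 and 94.3 CPM. The log2 change was -2.12 (SE 0.11), one of the 2 smallest edgeR adjusted p-values in the comparison (0.00019). The gene spans chr11:117966079-117970047.

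Gbx2, a homeobox gene downstream of STAT3 that overlaps an antisense gene, fell from 164 and 154 CPM to 49.0 and 54.9 CPM, with control at 217 and 233 CPM. Pim3 fell from 149 and 146 CPM to 67.0 and 53.4 CPM, with control at 110 and 104 CPM. For both genes the 6 h libraries were lower than every 3 h and control library. The log2 changes were -1.62 (SE 0.12) and -1.29 (SE 0.14), with edgeR adjusted p-values of 0.00099 and 0.0050.

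Feedback inhibitors of the ERK pathway fell together with its ligand. In this list of 21 genes 4 were lower at 6 h and none higher, against 1.18% and 0.455% of all genes. The median log2 change was -0.19. Relative to all genes the median was -0.20, and -0.13 or -0.31 without the first or the second 3 h library. Spry4 and Spry2 encode Sprouty proteins, which block signalling from growth factor receptors. Spry4 dropped from 269 and 295 CPM to 98.8 and 76.8 CPM, and Spry2 from 174 and 169.5 CPM to 62.01 and 51.3 CPM. In control, Spry4 stood at 335 and 348 CPM and Spry2 at 122 and 114 CPM, so each was lower at 6 h than in any other library. Dusp6, the phosphatase that inactivates ERK, was at 135 and 163 CPM at 3 h and 75.9 and 74.2 CPM at 6 h, and its log2 change of -0.99 (SE 0.13) compares with -1.68 (SE 0.14) for Spry4 and -1.60 (SE 0.13) for Spry2. Fgf4, the ligand, fell by less: it was at 142 and 125 CPM at 3 h and at 75.2 and 76.9 CPM at 6 h, with a log2 change of -0.81 (SE 0.12). The edgeR adjusted p-values of the 4 genes lay between 0.0013 for Spry4 and 0.016 for Fgf4.

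In the developmental ligand pathways single members were called. Among 24 Activin-Nodal genes 4 fell (Inhbb, Lefty1, Smad7 and Ski) and none rose, against 1.18% and 0.455% of all genes. Yet the list's median was 0.04, with 13 members above 0 and 11 below. Inhbb, which encodes the beta B subunit of activin and inhibin, had 116 CPM in both 3 h libraries and 19.5 and 22.4 CPM in the 6 h libraries, against 83.0 and 85.0 CPM in control. Its log2 change of -2.47 (SE 0.13) had an edgeR adjusted p of 0.00019, and the gene spans chr1:119415465-119422248. Smad7, the inhibitory SMAD, went from 109 and 86.3 CPM to 37.9 and 45.0 CPM, and Lefty1, a secreted Nodal antagonist, from 8.07 and 11.8 CPM to 3.03 and 3.60 CPM. The 6 h and 3 h libraries did not overlap for any of these genes, and the call of Lefty1 was lost with scaling by library totals.

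Of 37 WNT genes 3 fell and none rose, against 1.18% and 0.455% of all genes, with a median log2 change of -0.28. Relative to all genes the median was -0.29, and -0.19 without the second 3 h library. Wnt3a, a ligand of the canonical pathway, was the extreme: the 3 h libraries held 26 and 27 counts and the 6 h libraries 0 and 0, although the latter were deeper. Taking 3 counts in a library as the limit of detection, the level at 6 h was at most 0.107 CPM after TMM scaling (mean over both libraries) against 1.62 CPM at 3 h, at least 15.1-fold lower. This limit covers counting error only. The receptor genes Fzd5 and Lgr4 fell by 1.17 (SE 0.13) and 1.19 (SE 0.18) on the log2 scale. In the BMP list of 21, the 1 edgeR call was Id1, which fell from 496 and 538 CPM to 282.5 and 288 CPM. In the Notch list of 20, the 1 edgeR call was Hes1, which fell from 202.5 and 210 CPM to 119 and 104 CPM. None of 24 Hippo-YAP genes was called by edgeR, and the member with the smallest p, Cyr61, had a log2 change of -0.56 (SE 0.20; adjusted p = 0.18). An unadjusted p under 0.05 was reached by 5 of them, and DESeq2 and limma-voom called none.

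**Figure D2:**
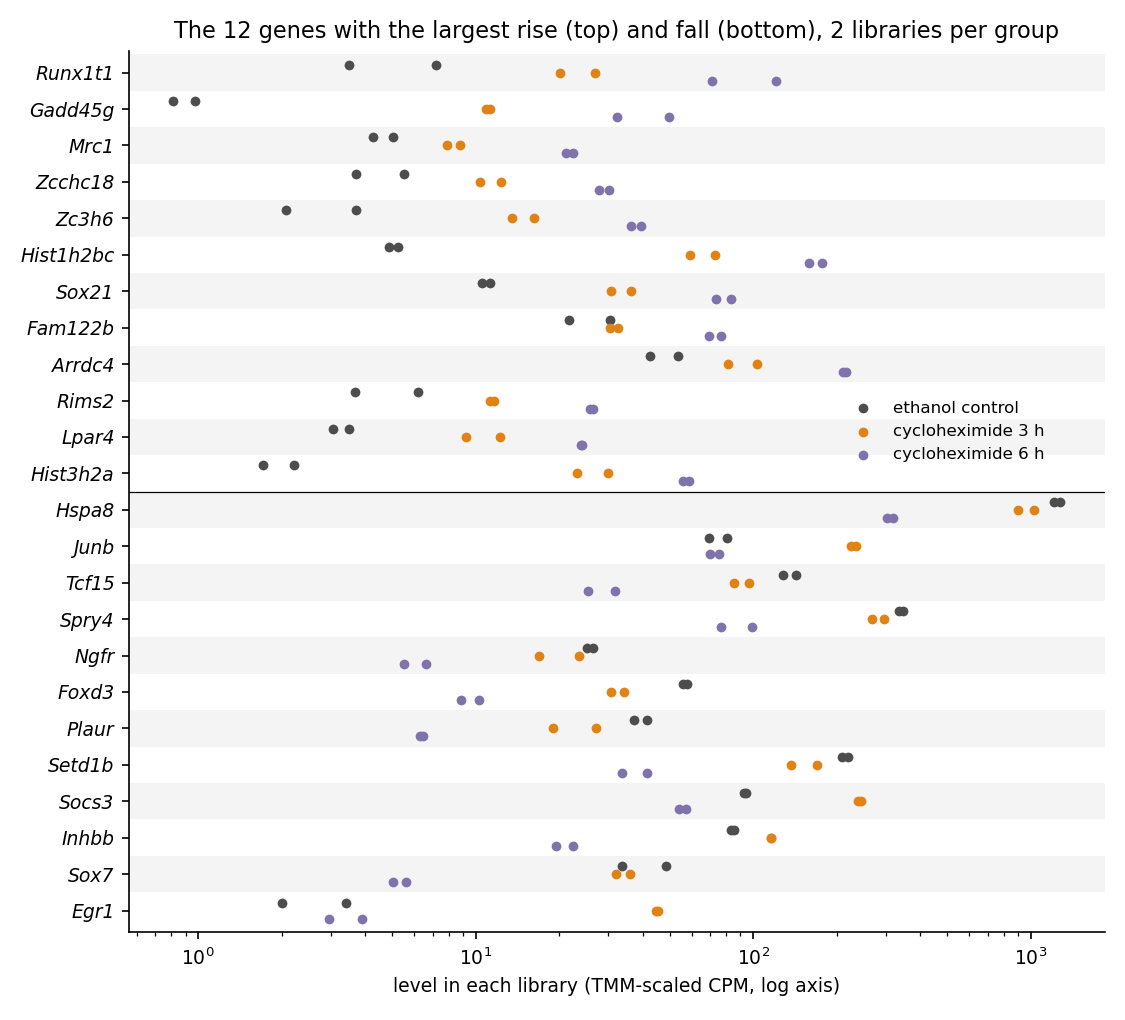
Level in each of the 6 libraries, in TMM-scaled CPM on a log axis, of the 12 genes with the largest rise (upper block) and the 12 with the largest fall (lower block) among called genes that reached 20 CPM. Grey points are ethanol controls, orange points 3 h and purple points 6 h, 2 libraries each. Points of 3 h and 6 h do not overlap for any of the 24 genes, and Egr1 and Junb at 6 h lie beside their control points.

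Pluripotency genes leaned lower, with 24 of 31 below 0 and a median log2 change of -0.25. The 6 h libraries lay wholly below the 3 h libraries for 21 of them, against 26.9% of all genes. By the test 6 were lower at 6 h and none higher: Zfp296, Gbx2, Fgf4, Zfp42, Sox2 and Klf4. Of all genes, 1.18% were called lower and 0.455% higher. With scaling by library totals 5 pluripotency genes were called lower, and Klf4 lost the call. Sox2, the partner of Oct4 in the core network, stood at 3847 and 3956 CPM at 3 h and at 2337 and 2376 CPM at 6 h, and the 6 h values lay within the control range of 2281 to 2601 CPM. The log2 change of Sox2 was -0.73 (SE 0.09; edgeR adjusted p = 0.011). Zfp42, also known as Rex1, fell from 638 and 594.5 CPM to 351 and 359 CPM, below the control values of 727 and 675.5 CPM, with a log2 change of -0.80 (SE 0.10). Pou5f1, which encodes Oct4, was at 149.5 and 139 CPM at 3 h and at 136 and 125 CPM at 6 h, and did not pass the test (log2 change -0.14, SE 0.12, edgeR adjusted p = 0.57). Nanog ranged from 3.86 to 8.84 CPM over the 4 libraries and its groups overlapped.

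Transcription factors of the neighbouring epiblast and endoderm states were among the largest falls. Foxd3, a forkhead factor needed for epiblast maintenance, was at 34.2 and 30.7 CPM at 3 h and 10.3 and 8.85 CPM at 6 h. Tcf15, a bHLH factor of cells preparing to differentiate, was at 96.7 and 85.1 CPM and then at 31.7 and 25.5 CPM. They were the 2 members called by edgeR among 14 formative and primed epiblast genes. The list as a whole did not lean lower: its median was -0.02, with 7 members above 0 and 7 below. DESeq2 called 3 members higher and 4 lower, and limma-voom called 3 higher and 3 lower. Sox7, an endoderm factor, fell from 36.0 and 32.0 CPM to 5.05 and 5.63 CPM, a log2 change of -2.67 (SE 0.21), and was the 1 called of 17 primitive endoderm markers, whose median log2 change was -0.33, or -0.20 relative to all genes without the first 6 h library. For all 3 genes the 6 h libraries lay below control as well, at 55.9 to 57.8 CPM for Foxd3, 129 to 142.5 CPM for Tcf15 and 33.6 to 48.5 CPM for Sox7. The edgeR adjusted p-values were 0.0019, 0.0023 and 0.0011. The summed primitive endoderm markers were lower at 6 h by the amounts given above, and their part in the result for Sox7 was not tested. That sum includes Sox7 itself and is mostly Sparc and Lamc1. Sparc stood at 366 and 357 CPM at 3 h and at 259 and 298 CPM at 6 h. Lamc1 stood at 232 and 283 CPM and then at 188 and 222 CPM. Gata4, Gata6, Sox17, Foxa2 and Pdgfra were low in every library, with 7.10 CPM for Gata4 in the second 3 h library as the highest value.

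Myc and its relative Mycn fell side by side. Mycn was at 164 and 167 CPM at 3 h and at 63.3 and 62.4 CPM at 6 h, and Myc at 93.0 and 112 CPM and then at 48.7 and 32.8 CPM. They were the 2 called of 14 MYC-MAX network genes, whose median was -0.22. Relative to all genes that median was -0.23, and -0.07 without the second 3 h library or -0.10 without the second 6 h library. Myc was not called in a fit that also took in the replicate number. Setd1b, which encodes a histone H3 lysine 4 methyltransferase, fell from 137 and 170 CPM to 33.7 and 41.4 CPM, with 219 and 209 CPM in control, a log2 change of -2.04 (SE 0.15; edgeR adjusted p = 0.00099). The surface receptor genes Plaur and Ngfr completed the 12 largest falls, with log2 changes of -1.85 (SE 0.20) and -1.73 (SE 0.21).

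Genes of the stress and folding responses leaned lower at 6 h, with few calls. Of 38 genes of the integrated stress response, which ATF4 drives when amino acids are short, 4 fell and none rose. Of all genes, 1.18% were called lower and 0.455% higher. The median of the list was -0.30 and 31 of 38 lay below 0. Relative to all genes it was -0.31, and -0.16 without the second 6 h library. The fallers were the glycine transporter gene Slc6a9, the pseudokinase gene Trib3, the glutathione-degrading enzyme gene Chac1 and the glutamine transporter gene Slc38a2. Chac1 went from 36.4 and 40.5 CPM to 13.03 and 12.5 CPM, and Trib3 from 14.7 and 13.1 CPM to 3.89 and 4.83 CPM. Atf4 itself was level, at 477 and 451 CPM at 3 h and 466 and 463.5 CPM at 6 h, a log2 change of 0.00 (SE 0.10; edgeR adjusted p = 0.99). None of 20 cytosolic tRNA synthetase genes was called by edgeR, although 17 lay below 0 (median -0.19, or -0.12 relative to all genes without the first 3 h library). An unadjusted p under 0.05 was reached by 2, and DESeq2 and limma-voom called none. Farsb had the smallest p, with a log2 change of -0.35 (SE 0.13).

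Hspa8, which encodes the constitutive heat shock cognate Hsc70, was the chaperone with a large change. It read 902 and 1031 CPM at 3 h and 302.5 and 318.5 CPM at 6 h, against 1218 and 1280 CPM in control, so every 6 h value lay below every other. The log2 change was -1.64 (SE 0.11; edgeR adjusted p = 0.00053), and Hspa8 was the only called gene of 33 cytosolic chaperones (median -0.18). Its span, chr9:40800984-40810087, also holds small nucleolar RNA genes on the same strand. In the endoplasmic reticulum list 3 of 30 genes fell and none rose, against 1.18% and 0.455% of all genes, with a median of -0.27. The 3 were Xbp1, the factor spliced in the unfolded protein response, at -1.41 (SE 0.18), and the chaperones Pdia6 at -0.68 (SE 0.11) and Hsp90b1 at -0.67 (SE 0.11). Hsp90b1 was not called with scaling by library totals.

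The antioxidant list leaned lower as well. Of 23 NRF2 and antioxidant genes 21 lay below 0 and 2 fell, sulfiredoxin (Srxn1, -1.01, SE 0.15) and the glutathione synthesis gene Gclc (-0.69, SE 0.12). The median was -0.37 against 0.006 for all genes. In glycolysis 1 of 21 genes fell, the glucose transporter gene Slc2a1, from 94.6 and 118 CPM to 54.3 and 58.8 CPM, and the median was -0.28. The median of 34 cholesterol genes was -0.03. The calls of Gclc and Slc2a1 were lost with scaling by library totals. None of 26 p53 target genes was called by edgeR, DESeq2 or limma-voom, 5 reached an unadjusted p under 0.05 in edgeR, and Trp53 itself had a log2 change of -0.09 (SE 0.10).

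**Figure D3:**
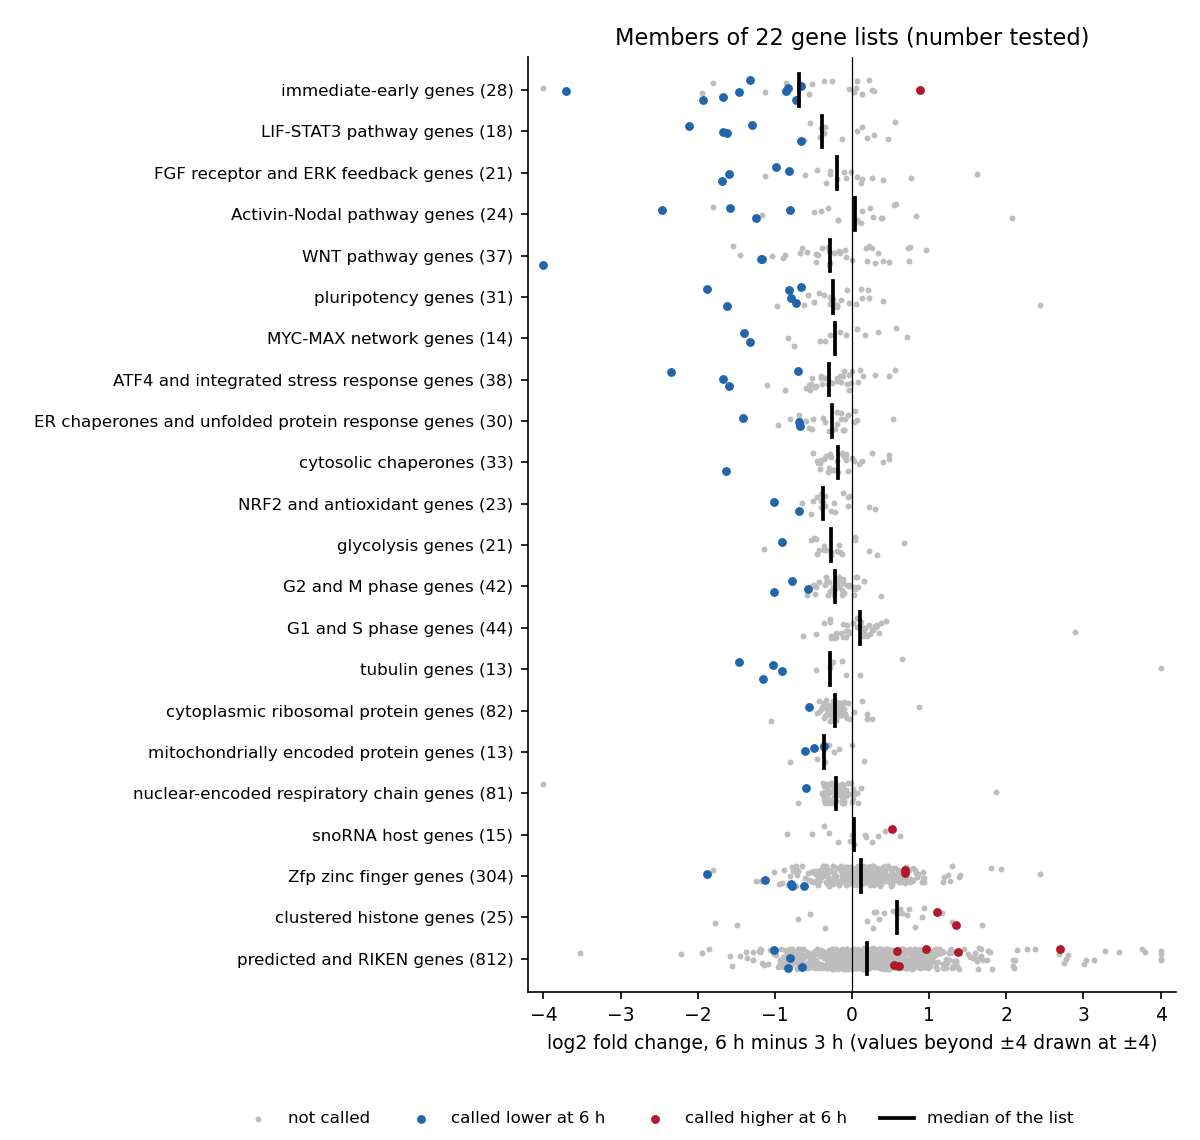
Log2 fold change between 6 h and 3 h of every tested member of 22 gene lists, with the number tested in brackets. Blue and red points are members called lower and higher, grey points were not called, black bars are list medians, and values beyond 4 are drawn at the edge. The median is lowest for the immediate-early genes (-0.69) and highest for the clustered histone genes (0.58).

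Messages of the translation and respiration machinery leaned lower by small amounts, and few single genes passed the test. Of 82 cytoplasmic ribosomal protein genes 76 lay below 0, with a median log2 change of -0.22, and the 2 times did not overlap, with 6 h lower, for 64 of them, against 26.9% of all genes. Of 81 nuclear-encoded respiratory chain genes 74 lay below 0 (median -0.21) and 1 was called, Ndufa11. Of 76 mitochondrial ribosomal protein genes 59 lay below 0 (median -0.12) and 1 was called, Mrpl50, which fell from 62.9 and 68.0 CPM to 33.6 and 31.9 CPM. Translation factors (60 genes, median -0.10, or -0.07 relative to all genes without the second 6 h library) and proteasome subunits (47 genes, median -0.11) had no edgeR call, although 8 and 6 of them had an unadjusted p under 0.05 and DESeq2 called 2 and 1. With scaling by library totals, the medians of the cytoplasmic ribosomal proteins and the respiratory chain became -0.09 and -0.08, those of the mitochondrial ribosomal proteins, translation factors and proteasome subunits turned to 0.01, 0.03 and 0.02, and Ndufa11 was not called. Upper quartile scaling also ended the call of Ndufa11. Ribosomal protein genes have many processed copies, and how shared reads were counted is not given in the sources used here.

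Transcripts of the mitochondrial chromosome were lower for 12 of the 13 protein genes, with a median of -0.36. Of these 3 fell: mtNd1, mtAtp6 and mtCytb. mtNd1, a subunit of complex I, had 11380 and 11520 CPM at 3 h and 8085 and 6911 CPM at 6 h, with 21730 and 25860 CPM in control. The log2 change of mtNd1 was -0.61 (SE 0.11), and those of mtAtp6 and mtCytb were -0.49 (SE 0.09) and -0.37 (SE 0.07). All 3 had edgeR adjusted p-values between 0.034 and 0.039. None was called with scaling by library totals or in a fit that also took in the replicate number.

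Mitotic genes leaned lower. Of 42 genes of the G2 and M phases 34 lay below 0 and 27 had 6 h libraries wholly below the 3 h libraries, again against 26.9% of all genes. The median was -0.22 and 3 fell: Cks2, the mitotic kinase gene Plk1 and cyclin B1 (Ccnb1). Cks2 went from 378 and 451 CPM to 199 and 213 CPM. Of 44 genes of the G1 and S phases none was called by edgeR, DESeq2 or limma-voom, 7 reached an unadjusted p under 0.05 in edgeR, and the median was 0.10. Whether the 2 lists differ was not tested. The call of Ccnb1 was lost with 3 other scalings.

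Tubulin genes, whose messages are known to be destabilised when free tubulin is abundant, had 4 falls among 13 tested and no rise. Of all genes, 1.18% were called lower and 0.455% higher. Tubb3 fell most, from 190 and 208 CPM to 75.1 and 68.3 CPM, with 262 and 266.5 CPM in control, a log2 change of -1.47 (SE 0.11; edgeR adjusted p = 0.0010). Tubb4b, Tuba4a and Tuba1c followed at -1.16 (SE 0.11), -1.03 (SE 0.14) and -0.91 (SE 0.15). The isotype genes Tubb5 and Tuba1b did not pass, with log2 changes of -0.28 and -0.29. Tubulin genes share long stretches of sequence, so their counts depend on how shared reads were treated. Tubb3 also made up 190 to 208 of the 293 to 335 CPM of summed neuroectoderm markers at 3 h.

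**Figure D4:**
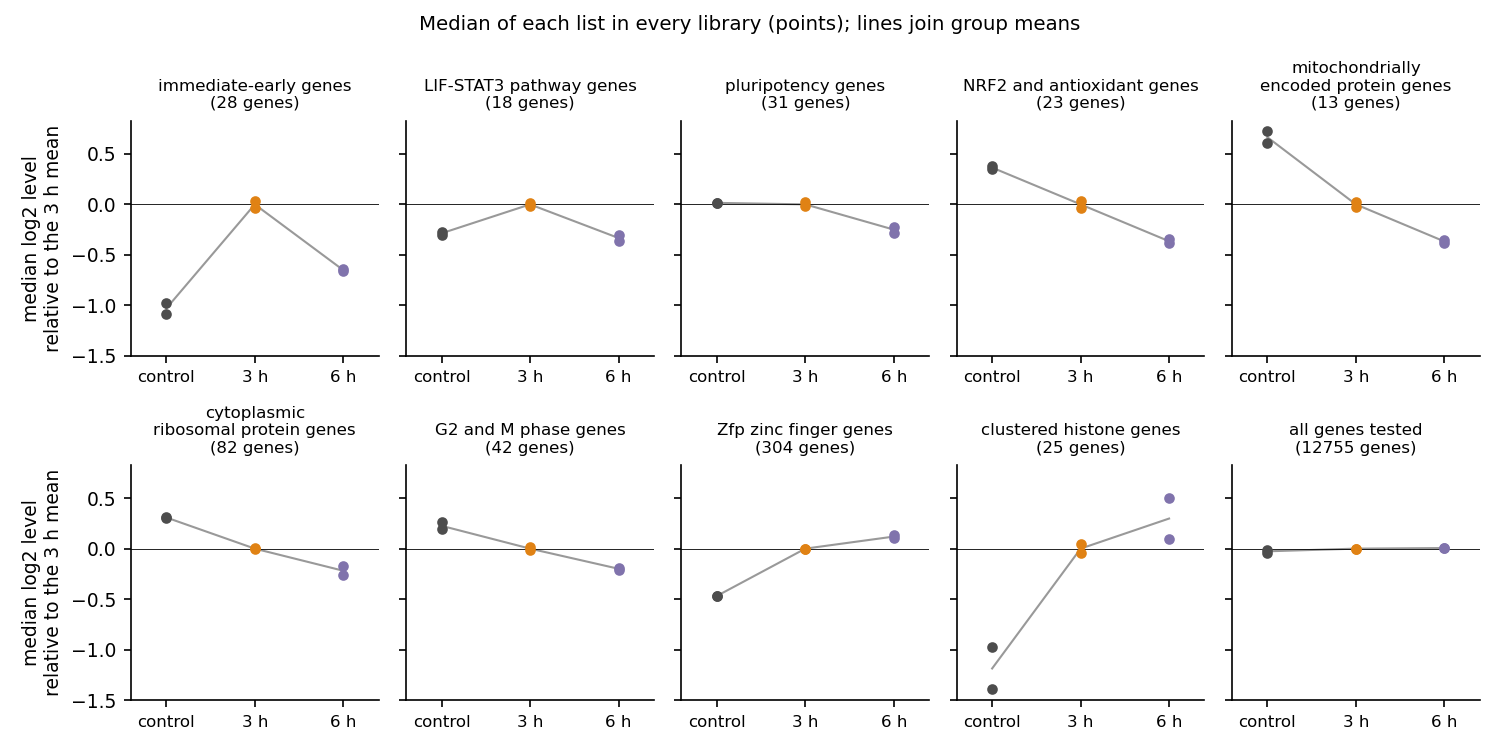
Median log2 level of 9 gene lists and of all genes in each library, relative to the mean of the 3 h libraries (points, 2 per group), with lines joining group means. At 6 h the immediate-early genes lie at -0.64 and -0.66, the mitochondrially encoded genes at -0.35 and -0.38, and the clustered histone genes at 0.10 and 0.50.

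Fewer genes rose than fell. The largest rise among genes reaching 20 CPM was that of Runx1t1, a transcriptional corepressor of the ETO family at chr4:13743436-13893649. It was at 20.1 and 26.8 CPM at 3 h and at 71.0 and 121 CPM at 6 h, with 3.48 and 7.21 CPM in control. All 3 groups were separate, and the log2 change was 2.03 (SE 0.32; edgeR adjusted p = 0.022). Sox21, a SoxB2 repressor, went from 36.3 and 30.8 CPM to 73.2 and 83.2 CPM, with 10.5 and 11.2 CPM in control, and a log2 change of 1.22 (SE 0.15). The zinc finger gene Zc3h6 went from 13.6 and 16.2 CPM to 36.4 and 39.6 CPM. The other genes among the 12 largest rises were Mrc1, Zcchc18, Fam122b, Rims2 and Lpar4, with log2 changes between 1.16 for Lpar4 and 1.38 for Mrc1, beside those described next.

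Stress and growth-arrest genes were represented by single family members. Gadd45g rose most in its family, from 11.3 and 10.9 CPM to 32.2 and 49.9 CPM, with 0.81 and 0.98 CPM in control. Its log2 change was 1.89 (SE 0.23; edgeR adjusted p = 0.0083), whereas Gadd45a and Gadd45b, at 0.31 and 0.53, were not called. Arrdc4, an arrestin-domain gene that the glucose sensor MondoA induces, rose from 80.8 and 103 CPM to 210 and 216 CPM, with 42.4 and 53.4 CPM in control, and a log2 change of 1.21 (SE 0.16; edgeR adjusted p = 0.011). Its relative Txnip, at 1097 and 1166 CPM at 3 h and 1273 and 1221 CPM at 6 h, did not pass the test (log2 change 0.14, SE 0.11, edgeR adjusted p = 0.56). Of the 8 genes of that list only Arrdc4 was called. The members of each family thus differed in whether they were called, but the differences between members were not tested.

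The upstream sequences of Arrdc4 and Gadd45g are shown because both genes were called higher and both hold an E-box. They come from RefSeq, build GRCm38.p6, read 5′ to 3′ on the gene's strand. The sequence of Arrdc4 spans chr7:68749242-68749488 on the minus strand, and that of Gadd45g spans chr13:51846425-51846674 on the plus strand. Capitals mark an E-box in each sequence, spelled CACGTG. They also mark CCAAT boxes, on either strand. In Gadd45g they mark the TATA box as well. Arrdc4 has its E-box from 193 bases before the start and 6 CCAAT boxes. Gadd45g has its E-box from 142, its CCAAT box from 78 and its TATA box from 27 bases before the start.
Arrdc4: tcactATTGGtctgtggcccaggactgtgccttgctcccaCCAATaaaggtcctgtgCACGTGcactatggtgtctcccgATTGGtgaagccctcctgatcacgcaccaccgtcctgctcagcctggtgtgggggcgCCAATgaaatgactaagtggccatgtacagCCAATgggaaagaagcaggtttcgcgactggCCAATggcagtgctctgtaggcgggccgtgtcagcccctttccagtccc
Gadd45g: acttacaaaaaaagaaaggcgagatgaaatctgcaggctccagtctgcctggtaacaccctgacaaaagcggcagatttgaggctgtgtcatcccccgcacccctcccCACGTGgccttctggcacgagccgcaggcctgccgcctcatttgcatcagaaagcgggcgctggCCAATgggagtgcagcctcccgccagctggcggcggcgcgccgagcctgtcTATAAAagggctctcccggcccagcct

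Motifs were counted over all called genes with a RefSeq entry, which 43 of the 58 risers and 105 of the 151 fallers had, in the 250 bases before the start and on both strands. The TATA box was found in 18.6% of the higher genes (8 of 43), in 8.57% of the lower genes and in 7.53% of the 9472 tested genes with an entry. Over all 27025 promoters of the table the shares were 14.3% for the TATA box, 7.82% for AP-1, 8.13% for STAT, 1.77% for the cAMP response element, 6.86% for the E-box, 37.5% for the CCAAT box and 35.4% for the GC box. The AP-1 motif (TGANTCA) was found in none of the higher genes, in 5.71% of the lower and in 5.2% of tested genes. The STAT motif was found in none of the higher genes, in 6.67% of the lower and in 6.86% of tested genes. A cAMP response element (TGACGTCA) was found in 4.65% of the higher genes (2 of 43), in 4.76% of the lower and in 3.12% of tested genes. The E-box was found in 6 of the 43 higher genes, in 8.57% of the lower and 10.2% of tested genes, and the CCAAT box in 53.5%, 41.0% and 41.0%. The GC box (GGGCGG), which is not capitalised in the sequences, was found in 67.4% of the higher genes, 79.0% of the lower and 65.1% of tested genes. Shares of the AP-1 and STAT motifs among the lower genes were thus near those of all tested genes. A match in these windows is a description of the letters only.

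Histone genes of the clusters leaned upwards. Only 25 of the 52 in the files passed the filter. Of these 20 lay above 0, 2 rose and none fell, and the median was 0.58. Relative to all genes the median was 0.11 without the second 6 h library, 0.36 without the second 3 h library and 1.12 with the stricter count filter. Hist1h2bc, an H2B gene at chr13:23684199-23692908, rose from 59.4 and 72.7 CPM to 159 and 177 CPM, with 4.89 and 5.25 CPM in control, a log2 change of 1.35 (SE 0.14; edgeR adjusted p = 0.0050). Hist3h2a, an H2A gene, rose from 30.02 and 23.3 CPM to 55.6 and 58.6 CPM, with 2.22 and 1.71 CPM in control. H1f0, the linker histone of non-dividing cells, was the 1 called of 11 variant genes and rose from 94.4 and 96.3 CPM to 153 and 150 CPM. The libraries were made from polyadenylated RNA, while most clustered histone messages end without such a tail, and the copies share sequence, so these values describe the counted polyadenylated part.

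Among host genes of small nucleolar RNAs, whose spliced RNAs are held down by nonsense-mediated decay while ribosomes move, 1 of 15 rose and none fell. Snhg1 was at 761 and 740.1 CPM at 3 h and at 1057 and 1101 CPM at 6 h, with 185 and 200.2 CPM in control, a log2 change of 0.52 (SE 0.10; edgeR adjusted p = 0.036). Gas5 did not pass the test: it read 192 and 190 CPM at 3 h and 223 and 234 CPM at 6 h, a log2 change of 0.26 (SE 0.10; edgeR adjusted p = 0.23). The list's median was 0.03, and Snhg1 was not called in a fit that also took in the replicate number. Of 24 genes of the decay and exon junction machinery 1 fell, Smg8, and of 20 SR splicing factors none was called by edgeR, with 3 at an unadjusted p under 0.05 and 1 called by DESeq2. Neat1, the scaffold RNA of paraspeckles, was the only called of 16 long non-coding RNAs and fell from 22.3 and 20.7 CPM to 11.7 and 10.2 CPM. The calls of Neat1 and Smg8 were lost with scaling by library totals, that of Neat1 also with thinning to equal depth and that of Smg8 also with upper quartile scaling.

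The 304 genes named as Zfp zinc fingers included 2 called higher, Zfp746 and Zfp346, with a median of 0.12 for the list. Another 5 were called lower, Zfp296, Zfp516, Zfp42, Zfp317 and Zfp961. Over all genes, 0.455% were called higher and 1.18% lower, so calls in the main fit were about as frequent as elsewhere. This did not hold for every tool. DESeq2 called 16 of 291 higher and 10 lower, beside 239 and 449 over all genes. With limma-voom 12 of 304 were higher and 8 lower, beside 189 and 319. A fit that also took in the replicate number called 0 higher and 3 lower. Of the 304, 189 lay above 0. The 6 h libraries lay wholly above those of 3 h for 117 and wholly below for 67, beside 27.2% and 26.9% of all genes. The call of Zfp317 was lost with scaling by library totals and that of Zfp746 with RLE size factors. Zfp296, a partner of Klf4, was at 7.81 and 7.33 CPM at 3 h and at 2.08 and 2.03 CPM at 6 h, against 40.3 and 34.1 CPM in control. Among 812 genes with predicted or RIKEN symbols, which include protein-coding genes, 6 rose and 4 fell, beside 0.455% and 1.18% of all genes. The median was 0.20. Of these, 1810020O05Rik was at 2.39 and 1.44 CPM at 3 h and at 10.8 and 14.1 CPM at 6 h.

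Other genes at low level were also called higher, and the following were picked out after their values had been seen. A gene could pass the count filter by its level in the 6 h libraries alone. Genes low at 3 h could thus enter the test because they were high at 6 h. Dock10, a guanine exchange factor gene, had 6 and 32 counts in the 3 h libraries and 327 and 466 counts in the 6 h libraries (log2 change 3.64, SE 0.66, edgeR adjusted p = 0.036), and the 3 h libraries themselves stood apart, at 0.387 and 1.85 CPM. Insm1, a zinc finger factor of neuroendocrine cells, had 42 and 34 counts at 3 h and 259 and 267 counts at 6 h, and 2 and 4 counts in control. The neuronal sodium channel gene Scn3a had 69 and 57 counts and then 360 and 448 counts. Bcl11b, a zinc finger factor of T cells and neurons, had 67 and 81 counts and then 362 and 345 counts. Of the 6 neuroectoderm markers tested, none was called higher and 1, Tubb3, was called lower.

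Called genes differed from the rest in features of their transcripts that the comparison did not use. Features came from GENCODE M21 (build GRCm38), which matched 99.3% of the genes tested. The lower genes were richer in G and C, with a median of 53.9% against 50.3% for all genes tested and 47.9% for the higher genes. They had fewer exons, with a median of 5 against 9 for all genes tested and 6.5 for the higher genes, and a shorter span, 12.6 kb against 22.9 kb and 27.7 kb. Median transcript lengths were nearer to each other, at 2931 bases for the lower, 3062 for all and 3597 for the higher genes. The lower genes were also more abundant than most: their median level at 3 h was 65.5 CPM, against 14.6 CPM for all genes, and more abundant genes are easier to call.

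The genes were divided into 5 equal bins by GC content. Calls of lower genes numbered 16, 15, 27, 34 and 58 from the bin of lowest to that of highest GC content. Calls of higher genes numbered 19, 13, 13, 5 and 8. The median log2 change of all genes in a bin moved from 0.089 in the lowest to -0.107 in the highest. GC content therefore moved with the direction of change across all genes as well as among those called, and its part in the results for single genes was not tested. In the bin with the fewest exons (1 to 4) there were 65 calls of lower genes and 19 of higher genes, each the most of any exon bin. The bin with the shortest span (up to 7.72 kb) held 56 calls of lower genes and 14 of higher genes.

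**Figure D5:**
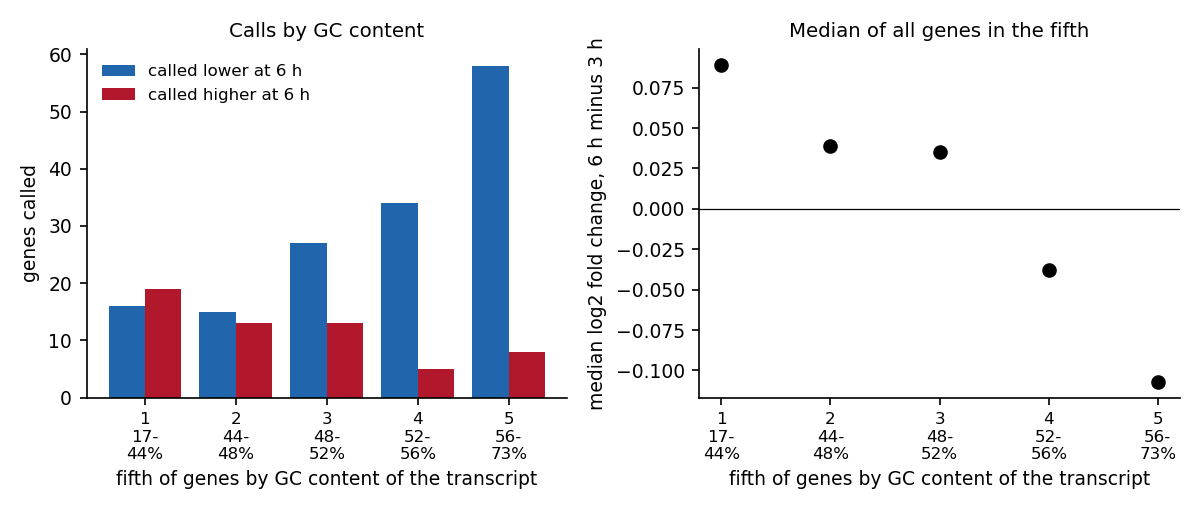
Left, number of genes called lower (blue bars) and higher (red bars) at 6 h in each of 5 bins of genes by the GC content of the transcript, in percent. Right, median log2 fold change of all genes in the same bins. Calls of lower genes number 58 in the highest bin and 16 in the lowest, and the median moves from 0.089 to -0.107.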

How the data were processed

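The authors deposited raw read counts per gene, 1 file per library, from polyadenylated RNA of 6 libraries that were barcoded and sequenced as a pool, per the labels' protocols. The genome build was mm10, per the submitters' processing notes. The aligner, the counting program, strandedness and the handling of reads shared between genes are not given in the sources used here. The 1 row that names no gene held 0 to 2 counts per library and was left out. Titles of the samples gave the groups and the replicate numbers.

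Counts were analysed with edgeR 4.0.16 in R 4.3.3. Genes were kept by a minimum count of 10 in the median library, scaled to each library's size, in at least as many libraries as a group holds, and a total of 15. TMM scaling and a quasi-likelihood fit with a mean per group over all 6 libraries were used, which leaves 3 residual degrees of freedom, and 6 h was contrasted with 3 h, two-sided. The control libraries entered the filter, the scaling and the estimate of spread only. P-values were adjusted by the Benjamini-Hochberg method over the 12755 genes, and an adjusted p under 0.05 was called. On counts simulated from these libraries (12449 genes, 200 changed in each of 5 runs), 53.6% of 2-fold and 83.4% of 4-fold changes were recovered, and 9.18% of calls were false. Replicates differed beyond counting noise (chi-square divided by its degrees of freedom, 18.7 to 27.7).

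Levels are counts scaled to CPM by library total and TMM factor. The limit of detection of 3 counts equals 0.11 to 0.32 CPM before TMM scaling. The genes, the 61 gene lists and the tests were chosen with earlier results of these data known. Genes were named by rule: the 12 largest rises and falls among called genes with a mean of at least 20 CPM, non-overlapping libraries and a descriptive symbol, up to 4 called members per list and direction, 11 fixed genes, and the member with the smallest p of a list without calls. Exons of 46 of the 121 named genes overlap those of another gene in GENCODE M21, 35 of them on the opposite strand, among them Junb, Gbx2, Zc3h6, Sox21 and Hist3h2a, and their reads cannot be told apart without strand. Coordinates are GRCm38 (mm10), from GENCODE M21. Alternatives were other scalings and filters, DESeq2 1.42.0, limma-voom (limma 3.58.1), fits to fewer libraries, a replicate block, thinning to equal depth and leaving out each library. A few genes are not reported here.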

Additional observations from a re-analysis of the deposited data

How the results depend on the processing

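The 209 calls (58 higher, 151 lower) became 1058 (466, 592) without a filter, 688 (239, 449) with DESeq2, 508 (189, 319) with limma-voom and 563 (249, 314) with the 4 cycloheximide libraries alone, and each of these 4 settings called all 209. Scaling by library totals gave 121 higher and 93 lower and called 151 of the 209, and the stricter filter gave 89 higher. With 1 library left out at a time the count ranged from 14 to 595, with 0 to 246 higher and 14 to 349 lower. No gene was called higher by edgeR without the first 3 h or the second 6 h library, where 1706 and 1258 genes had an unadjusted p under 0.05. The 4 lowest counts followed removal of a cycloheximide library, where the lone library left is assumed to vary like the other groups. Same-numbered libraries deviated from their group means with correlations of -0.0243 to 0.0942. These values show little shared deviation, but they cannot tell whether same-numbered libraries were prepared together, so both fits are given. A fit with the replicate block gave 126 calls (26 higher, 100 lower), 125 of them among the 209. Of the 91 named genes that were called, it kept 64. Among those lost were Myc, Snhg1, H1f0, Lefty1, Slc6a9, Slc43a2, Hsp90b1, Ccnb1, Smg8, Gclc, Zc3h6, Rims2, Zfp746, Zfp346, mtNd1, mtAtp6 and mtCytb. The lists of snoRNA host genes, histone variants and mitochondrially encoded genes then had 0 calls. RLE factors, upper quartile scaling, removal of mitochondrial genes and thinning gave 196 to 210 calls. All 91 named genes that were called kept their direction in every alternative that tested them. List medians were taken relative to the median of all genes. Among lists whose median exceeded the spread between replicates, 7 changed sign. Some lists with a median within that spread, such as the trophoblast markers, changed sign too and are not counted. Activin-Nodal genes went to -0.01 without a filter and to -0.10 with thinning. With 1 library left out they ranged from -0.08 to 0.04 for the Activin-Nodal pathway genes, -0.11 to 0.02 for the BCL2 family and apoptosis inhibitors, -0.09 to 0.04 for the nonsense-mediated decay and exon junction factors, -0.17 to 0.24 for the NF-kB genes and targets, -0.08 to 0.08 for the DNA methyltransferases and TET enzymes, -0.80 to 0.05 for the small nucleolar and Cajal body RNAs and -0.01 to 0.17 for the TRIM genes. Scaling by library totals turned the plain medians of 11 lists from below to above 0, none beyond 0.11. The cause of these changes was not tested. Depth was lowest in the second control library, and 2-fold changes were recovered in 53.6% of simulated cases, so a gene without a call may still have changed.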

Other observations

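Several lists that hold no called gene still had members whose libraries were apart between the times. Of 35 Hox genes in the files only 11 passed the filter. A gene could pass it by its level in the 6 h libraries alone, so the counts that follow are a description only. Of the 11, 6 had both 6 h libraries above both 3 h libraries and 2 had them below, beside 27.2% and 26.9% of all genes. The median log2 change was 0.43, or 0.06 relative to all genes without the first 3 h library. Hoxb9, the member with the smallest p, was at 1.61 and 1.27 CPM at 3 h and at 3.92 and 4.52 CPM at 6 h (edgeR adjusted p = 0.13). Hoxb9 alone of the 11 had an unadjusted p under 0.05, and DESeq2 and limma-voom called none. Of 39 autophagy and lysosome genes 14 were apart and higher and 5 apart and lower, beside 27.2% and 26.9% of all genes, with a median of 0.02. The lysosomal protease gene Ctsl was at 179 and 151 CPM at 3 h and at 122 and 108 CPM at 6 h (edgeR adjusted p = 0.082).

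Small nucleolar and Cajal body RNAs, of which 33 of 78 passed the filter, had a median of -0.45. Of the 33, 10 were apart and lower and none apart and higher, beside 26.9% and 27.2% of all genes. The share apart and lower was thus near that of all genes. Relative to all genes that median was -0.46, and it was 0.05 without the second 3 h library and -0.02 without the first 6 h library. Of 28 genes of the actin cytoskeleton and serum response factor targets 22 lay below 0 (median -0.21, or -0.12 and -0.11 relative to all genes without the second 3 h or the second 6 h library), and Srf itself was at 47.6 and 63.0 CPM at 3 h and at 34.0 and 27.1 CPM at 6 h (edgeR adjusted p = 0.079). Of 31 genes of the BCL2 family and apoptosis inhibitors edgeR called none, 5 had an unadjusted p under 0.05, and DESeq2 called 2 and limma-voom 1.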
